A study of Mus musculus with 58 samples.

Results

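Diabetic and control mouse retinas taken at ZT9, 9 h after lights on and still in the light phase, were compared, which takes up 10 of the 58 libraries of the series. The members were found by the sample titles, which name 5 diabetic and 5 control libraries for this time point, and each library was made from 1 retina. Diabetic animals were heterozygous male Ins2Akita mice, which carry a misfolding insulin allele that damages beta cells, and controls were male littermates without the allele, recorded as C57/BL/6. All mice were 4 months old, lived under a light/dark schedule with free access to food, were perfused with cold buffer before dissection and received no drug. As a model it covers early, insulin-deficient diabetes in males only. Blood glucose per mouse and the order of collection around ZT9 were not used here. Ins2 itself, the mutated gene, had 0 to 3 reads in each ZT9 library, so the genotype labels could not be checked with it.

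The ZT9 libraries held from 10596639 to 19003584 counted reads in controls (median 12830127) and from 8823091 to 15850348 in diabetic retinas (median 15080892). Retinal identity was clear in every library: the summed level of 16 rod genes was 54950 to 71530 CPM (read counts scaled to the same effective library size) in controls and 53130 to 66980 CPM in diabetic retinas. Control replicate 4 stood apart from its group, with a median correlation of 0.980 to the other controls (0.987 to 0.989 for the other 4) and the lowest share of mitochondrial reads at 1.07%. Lens genes, which a dissected retina should lack, summed to 81.4 and 87.2 CPM in diabetic replicates 4 and 5 and to 0.658 to 9.8 CPM in the other 8 libraries. The 10 markers of blood cells summed to 0.118 to 1.38 CPM over the 10 libraries.

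Light drives photoreceptors and inner retinal neurons, and neurons that are activated transcribe immediate early genes, such as Fos, Egr1 and the Nr4a receptors, without needing new protein. Many of these genes carry cyclic AMP response elements in their promoters, DNA sites of the factor CREB, and their transcripts are short-lived, so their level follows recent activity. The microRNAs miR-132 and miR-212 belong to the same activity-regulated class: they are processed from a shared noncoding precursor that CREB is known to induce, and in neurons they act on dendrite growth and synapses. Stanniocalcin 1, the amino acid carrier SNAT2 (Slc38a2) and the activin antagonist FSTL3, which recur below, belong to calcium handling, nutrient supply and secreted growth factor control.

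The single gene past the threshold, 1700016P03Rik (ENSMUSG00000085609.1), is a noncoding processed transcript at chr11:75172560-75177633 on the plus strand (GRCm38), and both microRNA hairpins lie inside it. Mir212 covers chr11:75173388-75173478 and Mir132 covers chr11:75173682-75173747, on the same strand. Their mature sequences (RefSeq, GRCm38.p6) are shown because they are the known products of the locus, with the seed, bases 2 to 8, in capitals.
mmu-miR-132-3p: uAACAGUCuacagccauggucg
mmu-miR-212-3p: uAACAGUCuccagucacggcca
mmu-miR-132-5p: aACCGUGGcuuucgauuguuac
mmu-miR-212-5p: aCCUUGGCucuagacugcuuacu
The 3p arms shared the seed AACAGUC, which only these 2 of 1679 mature mouse microRNAs of the table carry, and were identical at 17 of 22 positions. The 5p arms had seeds of their own. The libraries were made from ribosome-depleted total RNA, and mature microRNAs of this length were not measured.

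1700016P03Rik fell in diabetic retina at ZT9. It measured 4.91, 4.49, 4.39, 3.94 and 3.96 CPM in the control libraries and 1.53, 1.81, 1.57, 1.17 and 1.14 CPM in the diabetic libraries, from 41 to 83 reads per control and 10 to 25 reads per diabetic library. The highest diabetic library stayed well under the lowest control library, so the groups did not overlap. Its level was 4.34 ± 0.41 CPM (SD, n = 5) in controls and 1.45 ± 0.29 CPM (SD, n = 5) in diabetic retinas, a fold of 0.336 (log2 fold change -1.58, SE 0.30, adjusted p = 0.0408 by edgeR's quasi-likelihood test with Benjamini-Hochberg adjustment over 18814 genes). It was the 1 gene lower at an adjusted p under 0.05 (0.00532% of the genes tested), and 0 genes were higher. At an unadjusted p under 0.05, 436 genes (2.32%) were higher and 400 (2.13%) lower, 4.44% together.

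The call was a narrow one. Leaving out any 1 of the 10 ZT9 libraries took the adjusted p of 1700016P03Rik above the threshold, to between 0.0534 and 0.318, while its log2 fold change stayed between -1.67 and -1.49, and limma-voom gave 0.154. Over all 18 other settings its unadjusted p ran from 1.56e-07 to 2.22e-05. Ovca2, which overlaps it on the opposite strand, was at 12.3 CPM over the 10 libraries with a log2 difference of -0.04 (unadjusted p = 0.762), and the strand setting of the counting is not given in the sources used here, so reads of Ovca2 could have been counted on it if strand was not used.

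The microRNA genes had few reads of their own. Mir212 had 0.947, 0.733, 0.658, 1.44 and 0.856 CPM in controls and 0.307, 0.432, 0.394, 0.704 and 0.694 CPM in diabetic retinas. All but 2 diabetic values lay under the lowest control, those 2 lying just above it, and the log2 difference was -0.88 (SE 0.37, edgeR unadjusted p = 0.0211, adjusted p = 0.983). Mir132 had 0 to 4 reads per library and was not tested. Both microRNA genes were picked after their values were seen, as lying within the called host.

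**Figure D1:**
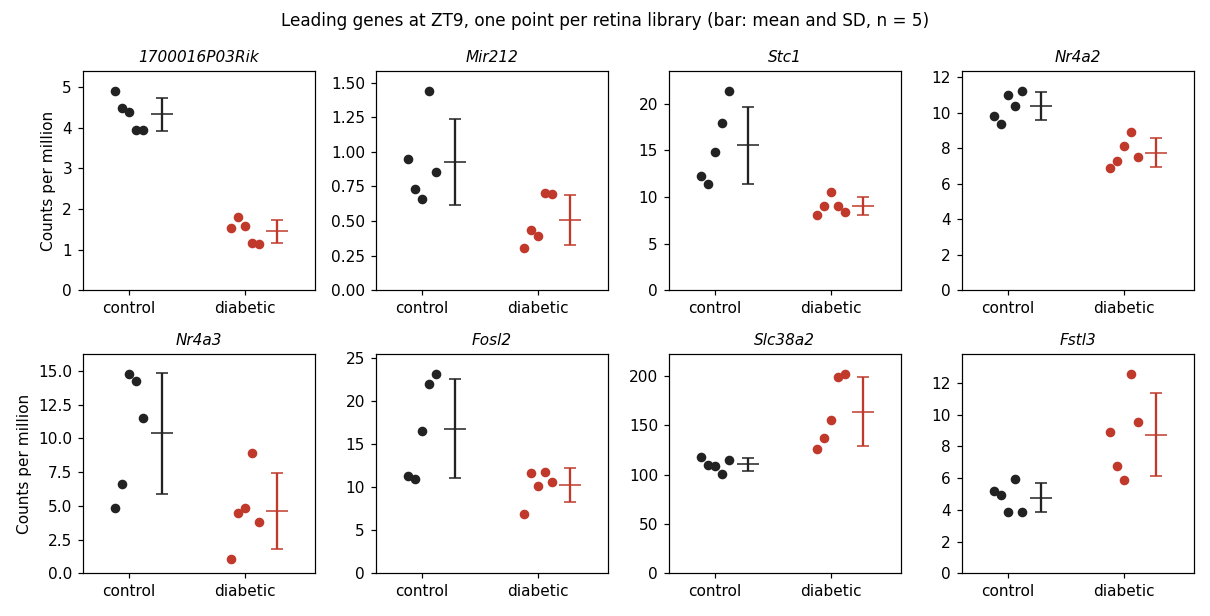
CPM (vertical axes, starting at 0) of 8 genes in the 5 control and 5 diabetic ZT9 libraries, 1 point per library, with the mean and SD as a bar to the right. The groups separate completely for 1700016P03Rik (3.94 to 4.91 against 1.14 to 1.81 CPM), Stc1, Nr4a2 and Slc38a2, and overlap for Mir212, Nr4a3, Fosl2 and Fstl3.

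Across the day the host transcript was high in light and low in darkness in control retina. Its control mean was 4.00 ± 0.47 CPM at ZT1, 2.73 ± 1.25 CPM at ZT5 and 4.34 ± 0.41 CPM at ZT9, then 0.866 ± 0.353, 0.833 ± 0.307 and 0.489 ± 0.193 CPM at ZT13, ZT17 and ZT21 (SD, n = 4 to 6). Diabetic retina had 3.48 ± 1.04 CPM at ZT1 and was at 1.51 ± 0.89 CPM by ZT5, against means of 0.773 to 1.05 CPM at its dark time points. Its ZT9 libraries held 1.14 to 1.81 CPM above all those of ZT17 (0.561 to 0.991 CPM) and overlapping those of ZT13 and ZT21. The log2 difference was -0.18 at ZT1, -0.85 at ZT5 (unadjusted p = 0.00548, adjusted p = 0.507) and between -0.09 and 0.86 at the dark time points, none past the threshold at any time but ZT9. The test of the ZT9 difference against the mean difference of the other 5 time points gave -1.57 (SE 0.34, unadjusted p = 2.17e-05, adjusted p = 0.408), the smallest p of all 18814 genes in that contrast, which did not pass.

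The immediate early genes lay to the same side as the microRNA host. Of 20 listed genes, 18 had enough reads to test, and 17 of the 18 had a lower fitted level in diabetic retina, with a median log2 difference of -0.51 beside 0.00 for all genes tested. At an unadjusted p under 0.05, 10 of the 18 were lower and 0 higher, against 2.13% lower over all genes. None passed after adjustment, the smallest adjusted p in the list being 0.322. Summed over the 20 genes, the level was 544, 531, 512, 540 and 460 CPM in the control libraries and 348, 322, 352, 421 and 396 CPM in the diabetic libraries. Each diabetic sum lay under the lowest control sum.

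Fos, a subunit of the AP-1 factor, measured 53.5, 48.4, 41.5, 35.9 and 32.9 CPM in controls and 22.8, 15.2, 16, 15.2 and 18.9 CPM in diabetic libraries. These did not overlap, and the log2 difference was -1.26 (SE 0.38, edgeR unadjusted p = 0.00153, adjusted p = 0.466). Egr1, a zinc finger factor induced by light and growth factors, spanned 56.2 to 133 CPM in controls and 20.6 to 45.5 CPM in diabetic libraries, again without overlap, with -1.65 (SE 0.60, unadjusted p = 0.00833, adjusted p = 0.791). Its standard error was the largest of the 18 tested members.

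The 3 orphan nuclear receptors of the Nr4a family all had an unadjusted p under 0.05. Nr4a1 measured 49.0 to 63.1 CPM in controls and 26.7 to 38.2 CPM in diabetic libraries, without overlap (log2 difference -0.90, SE 0.27, unadjusted p = 0.00154, adjusted p = 0.466). Nr4a2, which dopaminergic neurons need, measured 9.83, 9.34, 11, 10.4 and 11.2 CPM in controls and 6.87, 7.25, 8.13, 8.92 and 7.51 CPM in diabetic libraries. Its groups stood apart with a small gap, for a difference of -0.43 (SE 0.12, unadjusted p = 0.000752, adjusted p = 0.377). Nr4a3 measured 4.85, 6.59, 14.8, 14.2 and 11.5 CPM in controls and 1.04, 4.49, 4.85, 8.92 and 3.79 CPM in diabetic libraries, and its log2 difference of -1.23 (SE 0.33, unadjusted p = 0.000479, adjusted p = 0.322) came with overlap, since 1 diabetic library exceeded 2 controls.

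The rest of the list divided by size. Fosl2, another AP-1 subunit, had 11.2, 11, 16.5, 21.9 and 23.1 CPM in controls and 6.93, 11.7, 10.1, 11.7 and 10.6 CPM in diabetic libraries (log2 difference -0.73, SE 0.19, unadjusted p = 0.000424, adjusted p = 0.322), with 3 controls above every diabetic library. Egr3, Egr4, Npas4 and Junb had log2 differences of -0.99, -0.88, -0.59 and -0.50 and unadjusted p-values of 0.00344, 0.016, 0.0138 and 0.0163. Jun, Btg2, Fosb, Dusp1, Ier2, Atf3 and Arc lay between -0.51 and -0.02 with unadjusted p-values above the threshold, and Ier3 was the single member with a positive value, 0.20. Egr2 had 24 reads over the 5 control libraries and 3 over the 5 diabetic libraries and was too low to test, as was Jund. Of the 18 tested members, 4 had groups that did not overlap, all lower in diabetic retina, against 0.42% of all genes for that pattern.

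**Figure D2:**
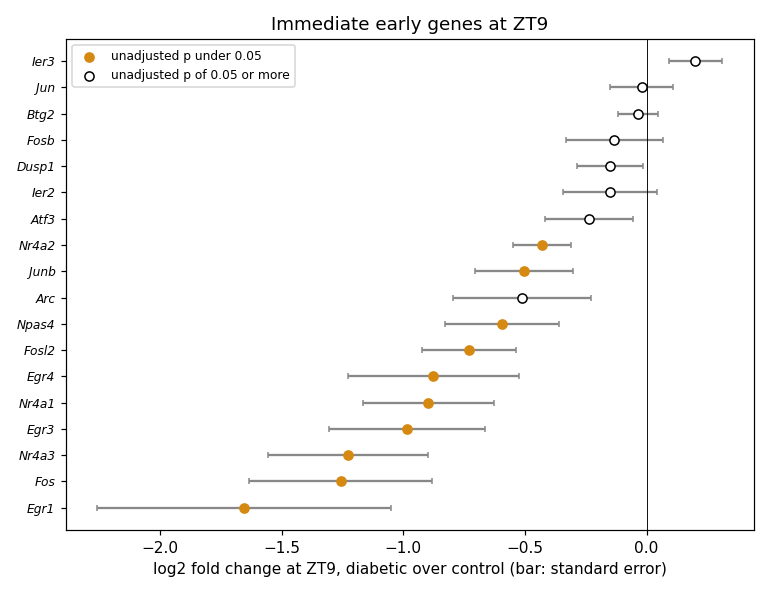
Log2 fold change of diabetic over control retina at ZT9 (horizontal axis) with its standard error for the 18 immediate early genes tested, sorted by size, filled where the unadjusted p is under 0.05. The 10 filled points are all to the left of 0, from Nr4a2 at -0.43 to Egr1 at -1.65, and none of the 18 has an adjusted p under 0.05.

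Leaving out each library in turn kept between 9 and 11 of the 18 at an unadjusted p under 0.05 and lower, and the list median stayed between -0.61 and -0.43. Without control replicate 4 it was -0.43, with 9 lower. Fitted on the 10 ZT9 libraries alone, which estimates the spread from these samples only, Fos and Nr4a1 passed after adjustment. With replicate number added to that fit as a block, 5 of the 18 passed, Egr1, Fos, Junb, Nr4a1 and Nr4a3.

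Promoter windows of the Nr4a family (RefSeq, GRCm38.p6, from 250 bases before the start to 50 after it) are shown because the 3 members lay on the same side and because cyclic AMP response elements are known in this class. Capitals mark the element's short form, TGACG or its reverse complement CGTCA.
Nr4a1, chr15:101266596-101266895, plus strand: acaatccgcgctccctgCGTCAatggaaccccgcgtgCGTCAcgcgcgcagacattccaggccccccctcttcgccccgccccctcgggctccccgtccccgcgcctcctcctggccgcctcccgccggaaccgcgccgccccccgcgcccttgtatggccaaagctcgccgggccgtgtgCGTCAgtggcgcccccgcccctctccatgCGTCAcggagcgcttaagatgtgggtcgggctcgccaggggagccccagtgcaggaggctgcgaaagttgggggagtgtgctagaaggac
Nr4a2, chr2:57123954-57124253, minus strand: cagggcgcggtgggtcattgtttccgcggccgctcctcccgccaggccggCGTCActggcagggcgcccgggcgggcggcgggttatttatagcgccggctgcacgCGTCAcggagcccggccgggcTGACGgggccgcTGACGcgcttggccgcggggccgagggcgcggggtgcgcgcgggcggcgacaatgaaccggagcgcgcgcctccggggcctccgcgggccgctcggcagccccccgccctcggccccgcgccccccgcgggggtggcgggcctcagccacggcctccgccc
Nr4a3, chr4:48045055-48045354, plus strand: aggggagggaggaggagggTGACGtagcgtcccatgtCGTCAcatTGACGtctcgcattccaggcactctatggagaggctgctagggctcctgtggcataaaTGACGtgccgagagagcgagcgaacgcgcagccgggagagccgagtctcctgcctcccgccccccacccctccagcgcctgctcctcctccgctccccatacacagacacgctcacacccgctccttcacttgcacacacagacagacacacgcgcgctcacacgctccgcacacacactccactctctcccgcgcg
Each of the 3 windows held 4 matches. Over the 16 immediate early genes with a window, 12 (75%) held at least 1 match on either strand, beside 23% of the 27025 genes in the table. The full palindrome TGACGTCA, which holds both short forms, was in 2 of the 16, Btg2 and Dusp1 (12.5%), beside 2.03% of all genes, and those 2 genes had differences of only -0.04 and -0.15. Fosl2 had no match in its window, and of the 8 genes with a window among those named by rank, 3 held the short form (37.5%). The list is of a class known for these elements, so its higher share is no evidence on the ZT9 difference. A match describes these letters only and no binding was measured.

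At the other time points the medians of these 18 genes lay near 0. In the light phase the median log2 difference was -0.03 at ZT1 and 0.08 at ZT5, and in darkness it was 0.01 at ZT13, -0.04 at ZT17 and -0.08 at ZT21. Between 0 and 2 members were lower at an unadjusted p under 0.05, where all genes gave 2.6%, 3.39%, 1.79%, 4.36% and 2.08% in the same order of times. In the ZT9 difference minus that at ZT5, 18 of 18 values were negative and 3 had an unadjusted p under 0.05. Minus that at ZT13, 13 of 18 were negative and 5 had such a p. The shares of all genes in either direction were 2.25% and 2.99%. For the ZT9 difference minus the mean of the others, 17 of 18 values were negative and 8 had an unadjusted p under 0.05, against 1.27% of all genes in that direction, and the smallest adjusted p in the list was 1.00. Nr4a3 traced this in its means: controls had 11.1 ± 2.1 CPM at ZT1, 4.59 ± 2.41 CPM at ZT5 and 10.4 ± 4.5 CPM at ZT9, and diabetic retinas 10.7 ± 2.3, 4.97 ± 1.79 and 4.62 ± 2.83 CPM. Fosl2 had the same shape, with 21.2 ± 4.4, 10.2 ± 3.2 and 16.8 ± 5.7 CPM in controls and 17.0 ± 3.6, 10.9 ± 2.8 and 10.2 ± 2.0 CPM in diabetic retinas. In both genes the control means at ZT1 and ZT9 stood above that at ZT5, and the diabetic means at ZT5 and ZT9 were alike within their SD.

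Of the neurotrophins, Bdnf, which supports neuronal survival, measured 11, 12.2, 12.1, 11.7 and 13.0 CPM in controls and 5.95, 10.3, 10.2, 9.62 and 7.64 CPM in diabetic libraries. The groups did not overlap, and the log2 difference was -0.47 (SE 0.18, edgeR unadjusted p = 0.0112, adjusted p = 0.791). Lif, a cytokine that Muller glia use to protect photoreceptors, was near the limit of detection at 0.642 to 1.19 CPM in controls and 0.117 to 0.604 CPM in diabetic libraries (-0.82, SE 0.36, unadjusted p = 0.0273, adjusted p = 1.00). Of the 8 tested genes of the neurotrophin list, these 2 were lower at an unadjusted p under 0.05, beside 2.13% of all genes, and 7 had negative values. Gem, a small GTPase that restrains calcium channels, and Pdgfb, which recruits pericytes, were singled out after their values were seen. They had differences of -0.33 (SE 0.09, adjusted p = 0.325) and -0.66 (SE 0.17, adjusted p = 0.322).

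Stc1 came next to the microRNA host in the ranking of lower genes. Stanniocalcin 1 is a secreted glycoprotein of calcium and phosphate balance with protective effects on retinal neurons. It measured 12.2, 11.4, 14.8, 17.9 and 21.4 CPM in controls and 8.10, 8.98, 10.6, 9.03 and 8.40 CPM in diabetic libraries. All diabetic libraries were below all controls, for 15.5 ± 4.2 against 9.01 ± 0.95 CPM (SD, n = 5 each), a fold of 0.578 (log2 -0.79, SE 0.16, edgeR unadjusted p = 9.73e-06, adjusted p = 0.0742). Its control level, too, was higher in light, at 16.7 ± 2.1, 12.4 ± 3.8 and 15.5 ± 4.2 CPM at ZT1, ZT5 and ZT9 and at 7.28 to 7.86 CPM at the dark time points. The differences at the other 5 times lay between -0.24 and -0.07, and the contrast of ZT9 with their mean was -0.65 (SE 0.18, unadjusted p = 0.000562, adjusted p = 1.00). Stc1 passed in 4 of 18 other settings, among them DESeq2 and the fit without control replicate 2.

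**Figure D3:**
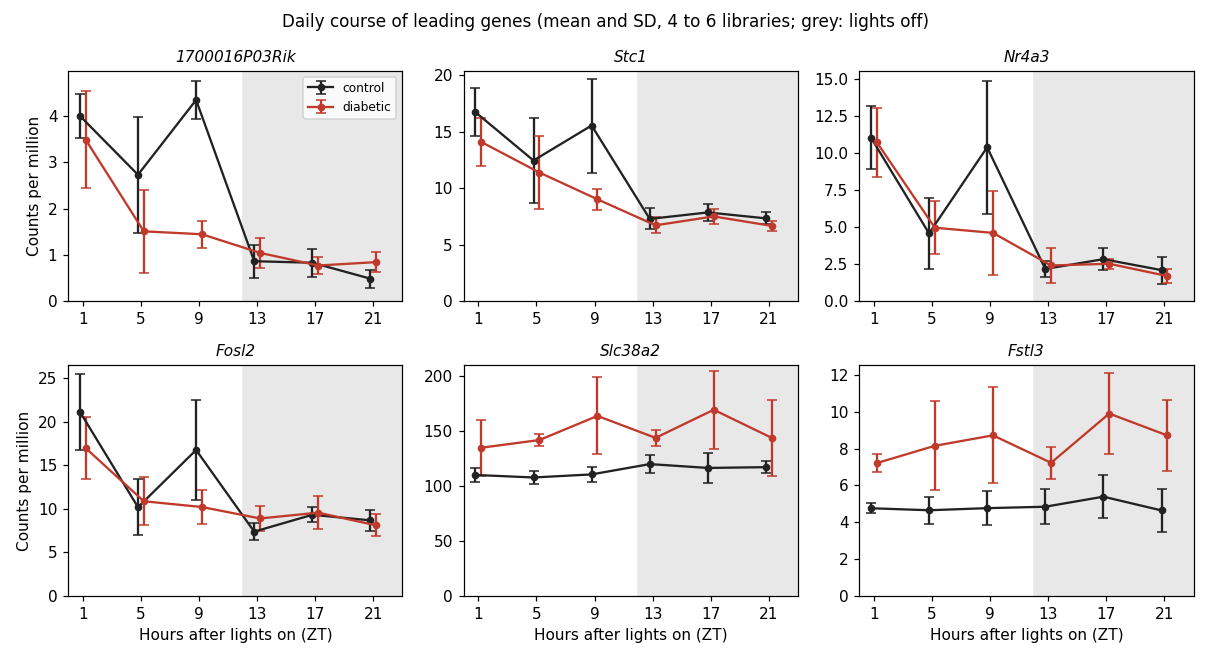
Mean CPM with SD (vertical axes) against hours after lights on (horizontal axes) for 6 genes in control (black) and diabetic (red) retina, 4 to 6 libraries a point, with the dark phase in grey. In the upper row and for Fosl2, control and diabetic means are furthest apart at ZT9 (4.34 against 1.45 CPM for 1700016P03Rik). The diabetic mean is also lower for 1700016P03Rik at ZT5 (2.73 against 1.51 CPM) and for Fosl2 at ZT1 (21.2 against 17.0 CPM). Slc38a2 and Fstl3 run higher in diabetic retina at all 6 time points.

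Among the higher genes, Slc38a2 and Fstl3 ranked first and neither passed at ZT9. Slc38a2, the sodium-coupled carrier of small neutral amino acids that cells raise when amino acids are short, measured 118, 110, 109, 101 and 115 CPM in controls and 126, 138, 155, 199 and 202 CPM in diabetic libraries. Every diabetic library was above every control, a pattern shown by 0.324% of all genes, with the 2 highest being diabetic replicates 4 and 5, the libraries with lens transcripts, whose part in the result was not tested. The fold was 1.48 (log2 0.57, SE 0.12, edgeR unadjusted p = 1.18e-05, adjusted p = 0.0742). It passed in 5 of 18 other settings, and its log2 difference was 0.49 without diabetic replicate 4, 0.48 without replicate 5 and up to 0.64 without another library.

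Fstl3, which binds and blocks activins and myostatin, measured 5.21, 4.94, 3.88, 5.96 and 3.85 CPM in controls and 8.90, 6.74, 5.90, 12.6 and 9.53 CPM in diabetic libraries. A single diabetic library fell just under the highest control, and the fold was 1.83 (log2 0.87, SE 0.19, unadjusted p = 1.95e-05, adjusted p = 0.0918). It passed in 3 of 18 other settings, which were DESeq2 and both fits with a replicate block, with an adjusted p from 0.0154 to 0.541. The highest diabetic values were again those of replicates 4 and 5, and the log2 difference was 0.72 without replicate 4 and 0.83 without replicate 5. Both stood on the higher side at every time point: Slc38a2 had log2 differences of 0.26 to 0.57 and Fstl3 of 0.57 to 0.90. Both passed at ZT17 (adjusted p = 0.0354 for Slc38a2 and 0.0147 for Fstl3, among 0.0744% of genes higher there). The contrast of ZT9 with the other times was 0.21 (SE 0.13, unadjusted p = 0.111) for Slc38a2 and 0.12 (SE 0.20, unadjusted p = 0.568) for Fstl3.

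The other genes named by rank did not pass either, with adjusted p-values of 0.286 to 0.317. On the higher side, Dnpep, an aspartyl aminopeptidase, measured 29.8 to 36.9 CPM in controls and 37.0 to 42.6 CPM in diabetic libraries (log2 difference 0.25, SE 0.06), without overlap. Tldc1, Zfp286, Zfp280b and Fam60a had log2 differences of 0.30, 0.40, 0.25 and 0.90, and Zfp286 and Fam60a were without overlap. Bricd5, which overlaps Mlst8 on the opposite strand, had only 0 to 3 reads per control library and 4 to 10 per diabetic library. On the lower side, Syt15 of the synaptotagmin family, the ubiquitin ligase Rnf123 and Ube4bos1 had differences of -0.43, -0.29 and -0.54. Rnf123 measured 259 to 360 CPM in controls and 212 to 260 CPM in diabetic libraries, so that the ranges touched at their edges. Both it and Ube4bos1 had negative values at every time point, from -0.40 to -0.29 for Rnf123 and from -0.76 to -0.22 for Ube4bos1, and both passed at ZT17 (edgeR adjusted p = 0.00861 and 0.0076), among 0.101% of genes lower there. Masp2, a protease of the lectin complement pathway, was at 0.802 to 1.97 CPM against 0.307 to 0.704 CPM (-1.31, SE 0.33). Its gene overlaps the far more abundant Tardbp on the opposite strand and Ube4bos1 is antisense to Ube4b, so reads of either partner could have been counted for them if strand was not used.

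**Figure D4:**
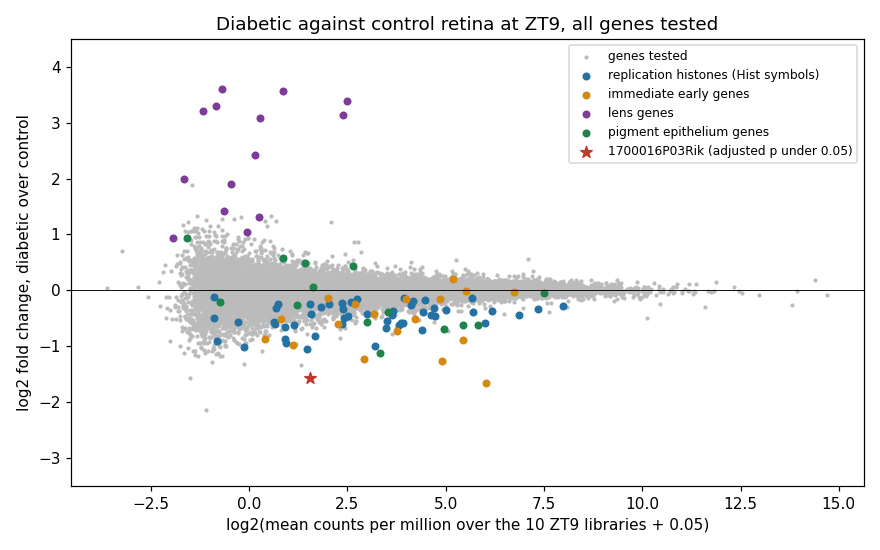
Log2 fold change of diabetic over control retina (vertical axis) against log2 of the mean CPM plus 0.05 over the 10 ZT9 libraries (horizontal axis), 1 point for each of the 18814 genes tested. Most genes lie close to 0, immediate early genes (orange) and histone genes (blue) lie mostly below it, lens genes (purple) lie above it at low levels, and 1700016P03Rik (star) is the one gene past the threshold.

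Replication histones were a further family on the lower side, and they were picked as a group after their values were seen. These genes make the core and linker histones of S phase, their transcripts mostly lack poly(A) tails, and ribosome depletion retains them. All 52 tested genes with Hist symbols had negative values, from -1.05 to -0.13 with a median of -0.44, and 21 of the 52 had an unadjusted p under 0.05, with 0 past adjustment. With the ZT9 libraries alone Hist1h2ae passed, with those and the replicate block 6 of the 52 passed, and without diabetic replicate 1 Hist1h2be passed (adjusted p = 0.0396). Groups did not overlap for 6 of the 52, all lower. Over all genes 2.13% were lower at that p and 0.42% were lower without overlap. By type, the median was -0.44 for 5 H1 genes, -0.62 for 11 H2A genes, -0.45 for 15 H2B genes, -0.46 for 8 H3 genes and -0.35 for 13 H4 genes. Members are near-identical in sequence, so how reads divide among them is uncertain.

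The leading member, Hist1h2bb, measured 19.7, 23.3, 23.8, 36.7 and 27.9 CPM in controls and 17.9, 12.8, 14.2, 17.2 and 17.9 CPM in diabetic libraries (log2 difference -0.71, SE 0.17, edgeR unadjusted p = 9.11e-05, adjusted p = 0.286). Every diabetic library lay under every control. Hist1h2be, next by rank, overlapped between groups (-0.45, SE 0.11, adjusted p = 0.317). Hist1h2ae was at 3.17 to 4.12 CPM against 1.64 to 1.96 CPM (-1.05, SE 0.29, adjusted p = 0.348). Summed over the family, control libraries held 1188, 1191, 1076, 1755 and 1446 CPM and diabetic libraries 1083, 918, 948, 1170 and 1009 CPM. The sums overlapped, and the highest was control replicate 4, the library that stood apart. Without that library the family median was -0.35 and 19 of 52 were lower at an unadjusted p under 0.05.

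Histone values were not all near 0 at the other times. The family median was -0.29 at ZT1 and -0.13 at ZT5, and in darkness 0.08 (ZT13), -0.41 (ZT17) and -0.13 (ZT21). In that order, 12, 5, 1, 14 and 4 of 52 were lower at an unadjusted p under 0.05, beside the shares of all genes given above. Cell cycle and E2F genes had no shared direction at ZT9, with 10 of 20 positive, a median of 0.01 and Mcm3, a subunit of the replicative helicase, lower at an unadjusted p of 0.0401 (-0.37, adjusted p = 1.00).

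Genes of the retinal pigment epithelium, the pigmented sheet behind the photoreceptors that can stay attached on dissection, had mostly negative differences. Lrat, which esterifies vitamin A for the visual cycle, measured 14.6, 13.7, 17.8, 11.1 and 11.8 CPM in controls and 7.79, 8.81, 6.69, 3.87 and 4.17 CPM in diabetic libraries. There was no overlap, and the log2 difference was -1.13 (SE 0.29, edgeR unadjusted p = 0.000315, adjusted p = 0.317). Rpe65, the retinoid isomerase, Rgr and Rdh5 had differences of -0.70, -0.61 and -0.57 (edgeR unadjusted p-values of 0.0406, 0.0388 and 0.0235). With the ZT9 libraries alone 0 of the list passed after adjustment, and with those and the replicate block Lrat, Rgr and Rpe65 passed. In all, 4 of 14 were lower at an unadjusted p under 0.05, beside 2.13% of all genes, 9 of 14 were negative and the median was -0.23. Diabetic replicate 5 held the highest value of the pigment genes Tyrp1, Dct, Pmel and Mlana, at 6.44, 15.2, 5.43 and 1.26 CPM. Their log2 differences were 0.49, 0.44, 0.58 and 0.93, and those of Dct, Pmel and Mlana were -0.06, -0.18 and -0.55 without that library, when 11 of 14 genes of the list were negative.

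The summed pigment epithelium level was 409, 380, 429, 369 and 390 CPM in controls and 330, 397, 302, 283 and 291 CPM in diabetic libraries, with 1 diabetic library within the control range. Trpm3 alone made up 178 to 193 CPM of these sums in controls and 158 to 191 CPM in diabetic libraries, with a log2 difference of -0.06. Fewer attached cells and less RNA per cell cannot be told apart in these bulk libraries, and this holds for every marker list. Leaving out each library in turn moved the median between -0.43 and -0.09 and the number lower between 1 and 6, with -0.09 and 2 genes without control replicate 1, -0.12 and 2 without diabetic replicate 4, -0.43 and 6 without diabetic replicate 2, and -0.28 and 1 without diabetic replicate 5. The direction of this list differed by time point too, from a median of -1.44 at ZT5 to 0.60 at ZT13.

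Lens genes had positive values for all 14 members tested, with a median of 2.76. By limma-voom the median was 0.80 and 2 of 14 were negative, and the authors' filter on low counts left 5 genes with a median of 1.42. Cryaa, an abundant lens crystallin, measured 0 to 2.07 CPM in controls and 0.0614, 0, 0, 26.4 and 20.5 CPM in diabetic libraries, so that diabetic replicates 4 and 5 carried nearly all of it. Crygb had the smallest unadjusted p of the list, 0.0223. The median was 1.96 without diabetic replicate 4 and 1.64 without replicate 5, when 12 of 14 were positive, and the defining fiber gene Lim2 was at 0 in all 10 libraries. Immediate early sums of these 2 libraries, 421 and 396 CPM, were above those of the other 3 diabetic libraries and under every control. The direction of the lens list changed with time point, with medians of -4.29 at ZT1, -0.32 at ZT5, 3.21 at ZT13, -7.08 at ZT17 and -6.78 at ZT21.

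Neural and glial marker lists stood near 0. Medians were -0.06 for 16 rod genes, -0.06 for 13 cone genes, -0.03 for 12 bipolar genes, -0.02 for 14 amacrine genes, 0.01 for 14 ganglion cell genes and -0.01 for 14 Muller glia genes. Single members at an unadjusted p under 0.05 were Nyx, a bipolar synapse protein (-0.17), Chat, the acetylcholine-making enzyme of starburst amacrine cells (0.29), and P2ry12, the ADP receptor of resting microglia (-0.47), with adjusted p-values of 1.00 by edgeR. Leaving out 1 library moved Nyx between -0.24 and -0.12, Chat between 0.19 and 0.39 and P2ry12 between -0.60 and -0.32. Among 15 reactive gliosis genes 0 had an unadjusted p under 0.05, beside 4.44% of all genes, with a median of -0.09.

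Glucocorticoid targets held 3 members on the higher side among 16, beside 2.32% of all genes at that unadjusted threshold. Nfkbia, the inhibitor of NF-kappaB, measured 22.0 to 28.5 CPM in controls and 24.5 to 41.4 CPM in diabetic libraries (0.35, SE 0.10, unadjusted p = 0.00184, adjusted p = 0.524). Fkbp5, a chaperone of the glucocorticoid receptor, and Klf9 had differences of 0.30 (SE 0.10, adjusted p = 0.739) and 0.19 (SE 0.08, adjusted p = 0.983). Leaving out 1 library moved Nfkbia between 0.22 and 0.42, Fkbp5 between 0.24 and 0.37 and Klf9 between 0.13 and 0.25. The list as a whole had 8 positive and 8 negative values with a median of -0.03.

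Medians of the metabolic lists lay near 0 at ZT9. They were 0.01 for 12 genes of upper glycolysis, 0.00 for 16 of lower glycolysis and 0.03 for 24 of pyruvate dehydrogenase and the citric acid cycle. For 21 hypoxia targets the median was 0.07 and for 36 complex I subunits 0.01. In that order 7, 8, 19, 16 and 21 of these genes had positive values, beside 9732 of 18814 over all genes. Of the 9 metabolic genes that the study names, 8 were positive. Slc2a1, the glucose transporter GLUT1 of the blood-retina barrier and photoreceptors, measured 153 to 205 CPM in controls and 175 to 275 CPM in diabetic libraries (0.20, SE 0.10, unadjusted p = 0.0472, adjusted p = 1.00), and the difference was 0.08 without diabetic replicate 4. Arrdc3, an arrestin domain protein, had a difference of -0.43 (SE 0.16, adjusted p = 0.791). Acadvl, which starts the oxidation of long fatty acids, had one of 0.26 (SE 0.10, adjusted p = 0.802) that was 0.15 without diabetic replicate 5. Small differences at an unadjusted p under 0.05 were also seen for P4ha1, a collagen hydroxylase (-0.18), Fdps of sterol synthesis (0.39), the complex I subunits Ndufab1 (0.18) and Ndufb2 (0.16) and Naprt of NAD synthesis (-0.47), with adjusted p-values of 0.989 to 1.00. Without control replicate 5 the value of Fdps was 0.24, and without control replicate 4 that of Ndufb2 was 0.10. The other metabolic genes that the study names, Hk2, Pfkl, Pfkp, Egln1, Hif1an, Ldha, Pdk1 and Foxo4, lay between -0.01 and 0.13 with unadjusted p-values of 0.159 to 0.883. Its 6 vision genes lay between -0.11 (Pde6h) and 0.06 (Rgs9bp), and its 6 angiogenesis genes between -0.24 (Tie1) and 0.36 (Angpt4), with 0 of these 12 at an unadjusted p under 0.05, beside 4.44% of all genes. Leaving out 1 library moved Rgs9bp between 0.03 (without diabetic replicate 5) and 0.09 (without diabetic replicate 2), Tie1 between -0.46 (without diabetic replicate 3) and -0.16, and Angpt4 between 0.16 (without control replicate 2) and 0.76 (without control replicate 4). The study chose those lists on these libraries, so they are not independent evidence.

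Core clock genes were all tested and 0 of 15 had an unadjusted p under 0.05, beside 4.44% of all genes. The median log2 difference was -0.02. Arntl, the positive arm of the loop, had the highest value of the group, 0.13 (SE 0.07), and the smallest unadjusted p by edgeR, 0.0806. It measured 101 to 125 CPM in controls and 114 to 145 CPM in diabetic libraries, and leaving out 1 library moved its difference between 0.07 and 0.16. Per1, Per2 and Dbp, which peak around the end of the day, had differences of -0.13 (SE 0.15), -0.10 (SE 0.13) and -0.10 (SE 0.12), and their ranges overlapped throughout. Per1 spanned 150 to 242 CPM in controls and 127 to 226 CPM in diabetic libraries. Leaving out 1 library moved Per1 between -0.27 and -0.0045, Per2 between -0.19 and -0.04 and Dbp between -0.15 and -0.02.

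**Figure D5:**
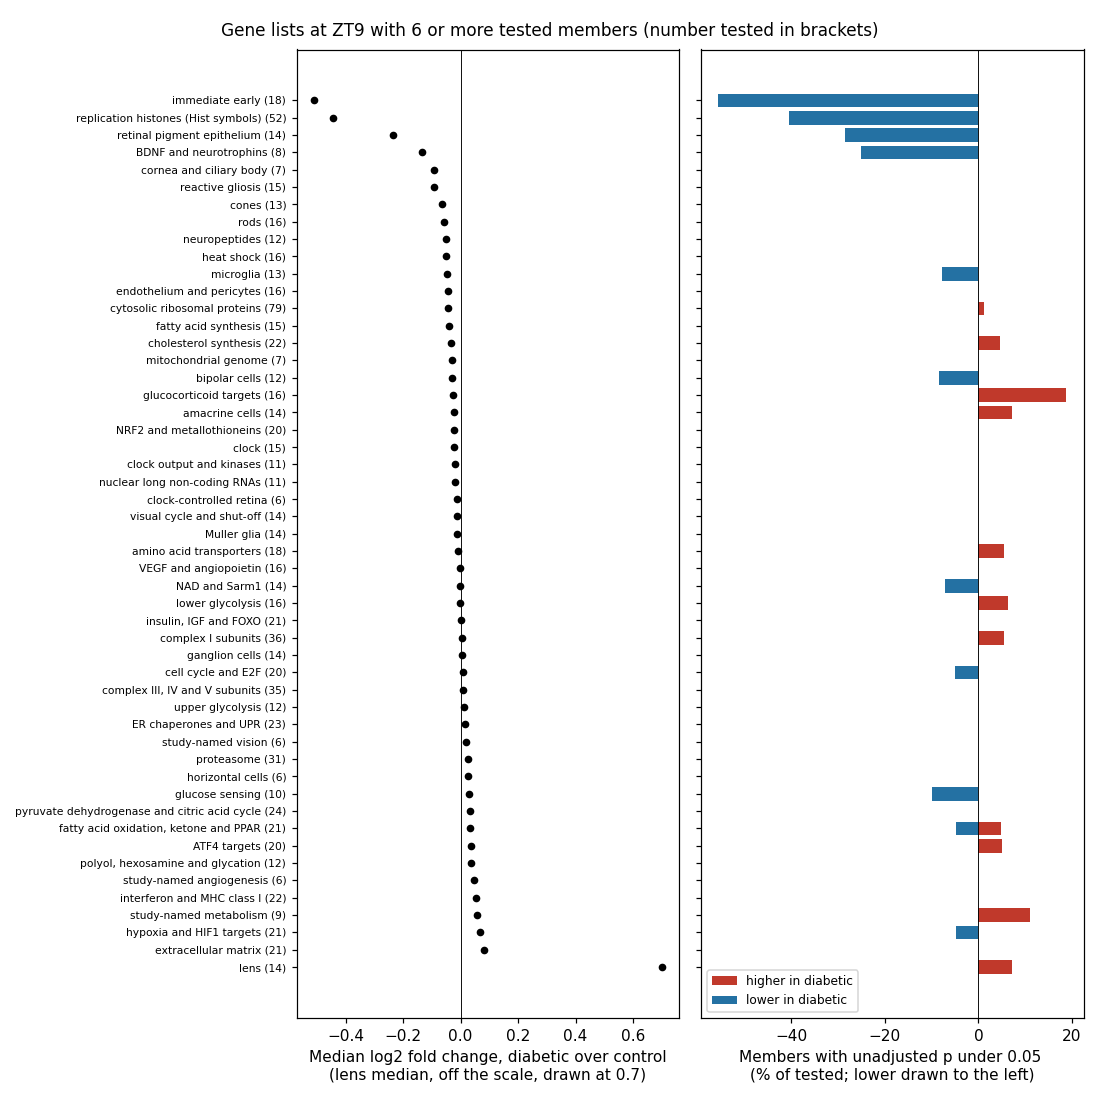
Median log2 fold change at ZT9 (left, horizontal axis) and percentage of tested members with an unadjusted p under 0.05 (right, lower members drawn to the left of 0) for each gene list with 6 or more tested members. Most medians lie within 0.1 of 0, and the immediate early, histone, pigment epithelium and lens lists stand apart at -0.51, -0.44, -0.23 and 2.76, the last drawn at the edge of its scale.

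Over the 52 lists, 47 medians lay within 0.1 of 0. Their 852 distinct genes included 811 that were tested, of which 12 were higher and 23 lower at an unadjusted p under 0.05, beside 2.32% and 2.13% of all genes, and 0 passed after adjustment. Of the 23 lower genes, 10 belonged to the immediate early list. Over all genes the median absolute log2 difference at ZT9 was 0.08 with a median standard error of 0.13, and 140 genes (0.744%) had groups that did not overlap.

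Set against the other time points, ZT9 was among those with few calls. By the same test 33 genes passed at ZT17 (0.175%), 4 at ZT5 (0.0213%), 2 at ZT1 (0.0106%), 1 at ZT9 and 0 at ZT13 and ZT21, where 843 (4.48%) and 878 (4.67%) genes had an unadjusted p under 0.05. Each comparison had 9 to 11 libraries. The contrast of the ZT9 difference with that of ZT5, of ZT13 and with the mean of the other times called 0 genes each by edgeR, with 423 (2.25%), 563 (2.99%) and 486 (2.58%) genes at an unadjusted p under 0.05. No gene was therefore shown to differ between diabetic and control retina at ZT9 in a way that differs from the other times.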

How the data were processed

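Total RNA of single retinas was made into ribosome-depleted libraries (KAPA RNA HyperPrep with RiboErase) and sequenced as paired ends. The authors aligned reads with STAR 2.7.4a to GRCm38.p5 with Gencode M15 and deposited raw HTSeq 0.11.1 counts per gene, in 1 table of 52459 genes and 58 libraries, not normalized. The strand setting of the counting, which can move reads between overlapping genes, is not given in the sources used here, and HTSeq as a rule leaves out reads that fit several places. Samples were grouped by title.

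From the counts, edgeR 4.0.16 (R 4.3.3) fitted 1 quasi-likelihood model to all 58 libraries in 12 genotype-by-time groups with TMM factors and filterByExpr, which left 18814 genes and 46 residual degrees of freedom. The authors normalized all libraries together and tested each time point with DESeq2, which is an alternative here. The diabetic minus control contrast at ZT9 and 3 contrasts of it with other times were tested, with Benjamini-Hochberg adjustment at 0.05. The standard error was the log2 fold change over the root of F. Levels are TMM-scaled CPM. p-values measure the spread between mice of 1 colony. Replicate libraries differed by more than counting noise (chi-square per degree of freedom 2.88 to 33.7 over 20 pairs). The calculation was tested on simulated data. Alternatives were RLE factors, no filter, the authors' filter (median above 4 normalized counts), DESeq2 1.42.0, limma-voom 3.58.1, a replicate block, the ZT9 libraries alone and each library left out.

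Named genes were those past the threshold, the next by unadjusted p up to 8 per direction, 15 clock genes, the genes the study names, Ins2 and up to 3 members per list, here kept to members at an unadjusted p under 0.05. Members and lists were chosen with earlier results of these data known. Of the symbols, 48082 matched Gencode M21, which gave positions, and 1700016P03Rik had no promoter window. Sequences came from RefSeq. Some genes are not reported here.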

Additional observations from a re-analysis of the deposited data

Results flagged for a closer look

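Dixon's gap ratio, the distance of the extreme library to its neighbour over the group's range, exceeded 0.71 for 5 libraries in 12 of 166 groups examined, where chance gives about 5%. In controls, replicate 4 was the extreme library for Rora (low, 0.81), Bbs1 (high, 0.751), Crygb (high, 0.889), Arrdc3 (low, 0.714) and Nfkbia (high, 0.819), and its median correlation with the other controls, 0.980 beside 0.987 to 0.989 for the others, gave a ratio of 0.799. Control replicate 5 was low for Per3 (0.75) and control replicate 1 high for P2ry12 (0.856). In diabetic retina, replicate 2 was high for Bricd5 (0.719), replicate 4 low for Nr1d2 (0.745), replicate 5 high for Ndufab1 (0.71) and replicate 3 high for Naprt (0.749). None of these genes passed the threshold, and the cause was not tested.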

How the results depend on the processing

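The ZT9 count of 0 genes higher and 1 lower became 1 and 2 with no filter on low counts, 2 and 2 with DESeq2, 0 and 0 with limma-voom and 0 and 4 with the ZT9 libraries alone. Replicate numbers were not used as pairs in the reported fit. Same-number correlations ran from -0.10 to 0.55, the highest for replicate 4, and 2 of 5 libraries correlated best with their own number. These values do not settle whether libraries of the same number share an effect. The fit with a replicate block called 2 genes higher and 1 lower, and the ZT9 libraries alone with a replicate block called 4 higher and 19 lower. Leaving out 1 library gave 0 to 1 higher and 0 to 1 lower. Listed genes past the threshold, 0 in the reported fit, numbered 1 with no filter, with DESeq2 and with the replicate block, 2 with the ZT9 libraries alone, 10 with those and the block, and 0 to 1 with 1 library left out. 1700016P03Rik passed in 7 of 18 settings, with an adjusted p from 0.000587 to 0.318. The contrasts between times called 0 genes in every setting run. Leaving out 1 library turned the direction of genes near 0, whose log2 differences then ranged as follows: Clock from -0.0184 to 0.0647, Per3 from -0.057 to 0.0612, Cry2 from -0.017 to 0.0633, Nr1d1 from -0.197 to 0.0365, Nr1d2 from -0.0184 to 0.10, Rorb from -0.102 to 0.0385, Nfil3 from -0.0887 to 0.028, Pfkl from -0.0268 to 0.0594, Ldha from -0.0119 to 0.0607, Foxo4 from -0.0758 to 0.0232, Nxnl2 from -0.0481 to 0.0499, Bbs1 from -0.00701 to 0.0666, Prcd from -0.00918 to 0.109, Hgf from -0.0554 to 0.108, Myof from -0.0191 to 0.0851 and Col8a2 from -0.432 to 0.00911. Of the immediate early, Hist, pigment epithelium and lens lists, leaving out 1 library also turned Jun, Hist1h2bm, Best1, Slc6a20a, Dct, Pmel, Mlana, Crygc and Crygd, and limma-voom turned Mlana (-0.02), Slc6a20a (-0.07), Cryaa (-0.12) and Crygc (-0.14). Low counts limit 1700016P03Rik (10 to 25 reads per diabetic library), Mir212, Bricd5 and Masp2, and 5 libraries per group leave a median standard error of 0.13, so that small differences were not detectable.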
